A study of Mus musculus with 6 samples.

Results

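G protein alpha subunits are the guanine nucleotide binding part of the heterotrimeric G proteins, and 8 of their genes in mouse (Gna11, Gna12, Gna13, Gna15, Gnaq, Gnas, Gnai2 and Gnai3) were followed here at the level of chromatin accessibility. A peak was counted for one of these genes when the nearest end of any protein-coding gene, measured from the peak's midpoint, lay within 50 kb and belonged to that gene. This rule gave 36 of the 42632 peaks of the series: 8 for Gnaq, 7 for Gnai2, 5 each for Gna12, Gna13 and Gnas, 3 for Gna15, 2 for Gna11 and 1 for Gnai3. The 8 genes were selected on earlier results of the same comparison of confined with unconfined cells, so their counts, CPM and fold changes are a description. No p is given for them, and those past the threshold used for all peaks are only counted beside the share of all peaks that were.

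The study used ATAC-seq, in which a transposase places sequencing adapters into open DNA, on the most primitive blood stem cells, long-term haematopoietic stem cells, or LT-HSCs, which were gated as lineage-negative, Sca1-positive, cKit-positive, CD34-negative and Flt3-negative bone marrow cells of 10 to 16 weeks old mice of the strain C57BL/6. It is a study of RhoA and nuclear mechanics, and the comparison addresses what confinement does to chromatin accessibility. No genetic change is named in the labels for either group. The 3 unconfined libraries came from cells kept in suspension for 16 h at 3% oxygen. The 3 confined libraries came from cells kept for 13 h in the same medium, left for 0.5 h to attach to glass coated with fibronectin, placed for 2 h below a coverslip on pillars of 5 µm, and then released with a dissociation reagent. Confinement, attachment and release went together in every confined library and cannot be told apart. The samples are called biological replicates, with no statement on the number of animals, so errors describe the spread between these libraries only.

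An alpha subunit with GDP bound sits on a beta-gamma pair below a receptor in the cell membrane. An activated receptor exchanges GDP for GTP, the alpha subunit and the beta-gamma pair then act on their targets, and hydrolysis of GTP, sped up by RGS proteins, ends the signal. Alpha subunits fall into families by target: Gnas raises cyclic AMP through adenylyl cyclase, Gnai2 and Gnai3 lower it, Gnaq, Gna11 and Gna15 act on phospholipase C beta, and Gna12 and Gna13 act on exchange factors of the small GTPase RhoA. In blood stem cells, receptors of this class include Cxcr4, which couples to the inhibitory family and takes part in keeping the cells in the bone marrow.

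The stretches of DNA just before the starts of 5 of these genes are shown because the peaks described next lie on them. Each is the 250 bases upstream of the RefSeq start on GRCm38.p6 (mm10), written in the direction of transcription, and capitals mark GC boxes (GGGCGG on either strand, overlapping matches included), the binding element of Sp1-type factors. The windows are chr10:81545163-81545412 on the minus strand for Gna11, chr19:16132434-16132683 on the plus strand for Gnaq, chr5:140830432-140830681 on the minus strand for Gna12, chr11:109362544-109362793 on the plus strand for Gna13 and chr3:108146153-108146402 on the minus strand for Gnai3.
Gna11: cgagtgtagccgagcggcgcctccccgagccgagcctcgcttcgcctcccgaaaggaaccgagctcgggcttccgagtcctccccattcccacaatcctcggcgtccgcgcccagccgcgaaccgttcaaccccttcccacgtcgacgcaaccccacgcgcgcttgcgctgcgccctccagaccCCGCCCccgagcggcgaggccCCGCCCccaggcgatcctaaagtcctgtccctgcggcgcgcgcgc
Gnaq: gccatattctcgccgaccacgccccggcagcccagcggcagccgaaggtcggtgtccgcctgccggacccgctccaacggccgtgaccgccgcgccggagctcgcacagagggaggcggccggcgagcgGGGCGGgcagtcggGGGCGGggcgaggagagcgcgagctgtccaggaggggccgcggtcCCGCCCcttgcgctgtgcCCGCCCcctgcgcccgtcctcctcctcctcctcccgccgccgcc
Gna12: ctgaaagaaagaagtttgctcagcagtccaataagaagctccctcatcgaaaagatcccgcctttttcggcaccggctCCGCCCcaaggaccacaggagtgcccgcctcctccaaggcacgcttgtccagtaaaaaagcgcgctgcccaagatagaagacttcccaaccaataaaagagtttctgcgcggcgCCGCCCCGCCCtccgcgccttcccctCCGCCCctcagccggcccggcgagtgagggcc
Gna13: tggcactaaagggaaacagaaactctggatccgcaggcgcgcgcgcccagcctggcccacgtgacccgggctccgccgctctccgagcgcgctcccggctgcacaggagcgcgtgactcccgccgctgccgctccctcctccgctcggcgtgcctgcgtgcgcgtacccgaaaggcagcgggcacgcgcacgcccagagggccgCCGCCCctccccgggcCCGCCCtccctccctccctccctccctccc
Gnai3: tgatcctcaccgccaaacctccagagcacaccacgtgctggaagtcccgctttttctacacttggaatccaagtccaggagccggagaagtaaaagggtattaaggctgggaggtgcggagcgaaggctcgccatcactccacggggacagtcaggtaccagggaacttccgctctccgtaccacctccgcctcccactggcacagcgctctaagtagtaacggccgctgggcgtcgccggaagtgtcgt

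Most of these upstream windows are rich in C and G. The Gnaq window is 79.2% C and G with 37 CpG dinucleotides, and the Gna11 window is 73.2% C and G with 38 CpG. Over 32851 RefSeq windows of 27025 genes the medians were 52.4% and 6 CpG. A GC box occurs in 32.7% of all windows of this length. It occurs 4 times in the window of Gnaq, 4 times in that of Gna12, and 2 times each in those of Gna11 and Gna13. None was found in the window of Gnai3 or in that of Gna15, which holds only 4 CpG. The CCAAT box (CCAAT, 33.8% of all windows) was found 2 times before Gna12 and before none of Gna11, Gna13, Gna15, Gnai3 and Gnaq. The E-box CACGTG (6.02% of all windows) was found once each before Gna13 and Gnai3, the ETS core CCGGAA (12%) once before Gnai3, and the RUNX core TGTGGT (14%) once before Gna12. The TATA box TATAAA (12.4% of all windows) was in none of these 6 windows, nor were the cAMP response element TGACGTCA (1.55%), the GATA element AGATAA (9.99%) and the CArG box (1.47%). Both strands were searched, and no motif of this set contains another. The whole windows of Gna11, Gnaq, Gna12 and Gna15 lie inside a peak, as do 116 bases of that of Gna13 and 169 of that of Gnai3. Gnas has several starts. The window before its start at position 174330006 of chromosome 2 is 80.0% C and G with 29 CpG and 2 GC boxes. Its 3 other windows, 2 of which overlap each other, are 61.6% to 63.2% C and G, and each holds a TATA box. A CCAAT box is in both of the overlapping windows, and the third holds 1 GC box and lies in no peak.

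Depth limits every value given for confined cells. Total counts in peaks were 304898 to 1229478 in unconfined and 128257 to 340922 in confined libraries, so that 3 counts, the floor used here, correspond to 2.44 to 9.84 CPM (counts per 1000000 counts in the peaks of a library) in unconfined and 8.8 to 23.4 CPM in confined libraries. Peak profiles (log CPM over all peaks) correlated at r = 0.676 to 0.824 between unconfined libraries. Against the unconfined libraries, confined library 1 gave 0.418 to 0.524, confined library 2 gave 0.0243 to 0.05 and confined library 3 gave -0.027 to -0.00727. Profiles of confined libraries 2 and 3 thus hardly correlated with those of unconfined libraries. Correlations between confined libraries are not given. A filter on low counts kept 9084 peaks for testing, 12 of the 36 described here among them, and a peak could pass it by being high in one group alone. Counts within 1 kb of a protein-coding gene end, called gene-end peaks here, made up 38.6% to 43.0% of counts in unconfined and 23.9% to 31.0% in confined libraries. Of 18 LT-HSC marker genes, 12 had a gene-end peak, among them Kit, Procr, Hlf and Fgd5, and 6 had none (Ly6a, Slamf1, Mecom, Tek, Gata2 and Cd27). Of 36 marker genes of other blood cells, 14 had one, among them Mpo, Pf4 and Gp1ba, and 22 had none, among them Cd3e, Ly6g and Csf1r. The highest in unconfined cells was Gp1ba at 65.6, 50.4 and 61.0 CPM in unconfined and 73.3, 27.1 and 23.4 CPM in confined libraries. Of 18 tested peaks of LT-HSC markers, edgeR called 2 higher (at Eng and Cd27) and 1 lower (at Gata2) in confined cells. Of all tested peaks 5.79% were higher and 2.42% lower. The Gata2 call was lost in DESeq2 (adjusted p = 0.0982) and with the replicate number as a block (edgeR, 0.0862). The Cd27 call was lost with scaling to total counts (edgeR adjusted p = 0.0978), and the Eng call without confined library 2 (edgeR, 0.0805). Each was lost under other alternatives as well. Summed CPM over marker gene-end peaks was 413 to 486 in unconfined and 288 to 387 in confined libraries for LT-HSC markers, and 291 to 318 against 390 to 420 for the other blood cells. The part of these shifts in the values that follow was not tested.

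The 8 gene-end peaks of the alpha subunit genes are all 700 bp wide, so their levels can be set side by side. In unconfined cells Gna12 was the most open, with a mean of 123 CPM (± 25.8 SD, n = 3). Gna11 (86.3 ± 14.8 CPM), Gnai2 (82.7 ± 28.1 CPM) and the start of Gna15 (71.6 ± 11.9 CPM) came next. Gnai3 (37.7 ± 15.8 CPM), Gna13 (31.5 ± 16.0 CPM) and Gnaq (22.9 ± 1.53 CPM) followed, and the 3′ end of Gna15 was lowest at 12.8 ± 5.59 CPM. Neighbours in this order had overlapping libraries except at 3 steps: Gna12 above Gna11, the Gna15 start above Gnai3, and Gnaq above the 3′ end of Gna15. Among the 11271 gene-end peaks of the series, Gna12 stood at percentiles 97.1 to 98.4 of the unconfined libraries and Gna11 at percentiles 91.8 to 94.2. Gnas has no peak within 1 kb of either outer end of its gene.

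In confined cells this order was no longer resolved. The means ran from 38.9 ± 14.8 CPM at the Gna15 start to 9.86 ± 10.3 CPM at Gnaq, and every pair of neighbours in the order had overlapping libraries. Counted as a set, the 8 peaks took 0.0512%, 0.0386% and 0.0509% of all counts without confinement and 0.0246%, 0.0172% and 0.0156% with it. The exact (Clopper-Pearson) 95% intervals, which cover counting error only, ran from 0.0352% to 0.0422% in unconfined library 2, the deepest, and from 0.00953% to 0.0241% in confined library 3, the shallowest. On average this was 0.0469% ± 0.00721 in unconfined and 0.0191% ± 0.00483 in confined libraries (SD, n = 3 each). Gene-end peaks of all genes also took a smaller share of confined libraries, as given above. In these bulk libraries, fewer cells with a region open and a less open region in each cell cannot be told apart.

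**Figure D1:**
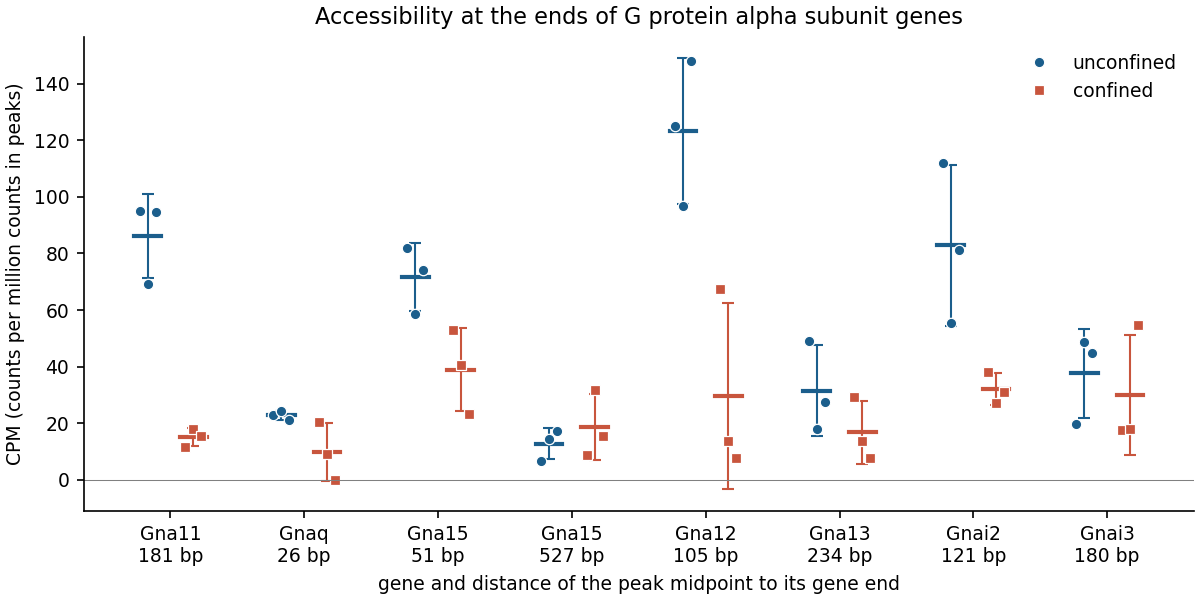
CPM (counts per 1000000 counts in the peaks of the library) at the 8 gene-end peaks, with 1 point per library and bars for the mean ± SD of 3 libraries per group; the gene and the distance of the peak midpoint from its gene end are on the horizontal axis. The unconfined and confined points are apart at Gna11, Gnaq, the Gna15 start, Gna12 and Gnai2, at Gnaq by less than 1 count. Confined library 1 is the high confined point at Gna12, at 67.5 CPM.

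With levels scaled to library totals, 5 of the 8 gene-end peaks had all confined libraries below all unconfined ones (Gna11, Gna12, Gnai2, Gnaq and the Gna15 start). Over all gene-end peaks of the series 31.4% did so. With TMM scaling (trimmed mean of M values), in which the factors come from the tested peaks, 3 of 8 did so (Gna11, Gna12 and Gnai2), against 11.8% of all gene-end peaks. Since the rule used this contrast, nothing is read from these shares.

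Gna11 and its neighbour Gna15 carry the Gq-family peaks on chromosome 10, where the genes lie 4276 bp apart. The peak at the start of Gna11 (chr10:81544993-81545692, midpoint 181 bp outside the gene) held 29, 85 and 93 counts in the unconfined libraries, in the order of their numbers, and 4, 4 and 2 in the confined ones. On the CPM scale these are 95.1, 69.1 and 94.5 against 11.7, 18.1 and 15.6, and the groups do not overlap. The ratio of the unconfined to the confined mean was 5.7, and the log2 fold change of confined over unconfined from edgeR with TMM scaling was -1.86 (SE 0.43). Summed over each group, the peak held 82.2 CPM (exact Poisson 95% interval 71.4 to 94.2) in unconfined and 14.5 CPM (6.94 to 26.6) in confined cells. These intervals cover counting error only, not the spread between libraries, and the peak was chosen on this contrast. Confined library 1, the one most like the unconfined libraries, was as low as the others, 7.35 times below the unconfined mean.

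Within its own library, the Gna11 peak went from percentiles 91.8 to 94.2 of gene-end peaks in unconfined cells to percentiles 12.1, 43.9 and 40.7 in confined libraries 1 to 3. Across the series 777 gene-end peaks stood above the 90th percentile in every unconfined library. Their median percentile was 95.4 in confined library 1, 72.4 in confined library 2 and 40.7 in confined library 3. The Gna11 peak was the only 1 of the 777 at or under percentile 12.1 in confined library 1, a description chosen after its values were seen. That cut is the peak's own percentile in the confined library where it ranked lowest, so nothing is read from this number. Its rank in that library rests on 4 counts. In confined library 3 its percentile equalled the median of the 777.

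The Gna15 start, 4328 bp from the nearer end of Gna11, differed less between the groups than the Gna11 start. Its peak (chr10:81524046-81524745, midpoint 51 bp inside the gene) held 25, 72 and 73 counts against 18, 9 and 3, or 82.0, 58.6 and 74.2 against 52.8, 40.7 and 23.4 CPM. The log2 fold change was -0.02 (SE 0.33), and the peak stood at percentiles 93.1, 93.0 and 60.6 in confined libraries 1 to 3. Its ratio of the unconfined to the confined mean was 1.84. On library totals the groups do not overlap, and with TMM scaling they do. Another Gna15 peak inside the gene, 4735 bp from its start, held 33, 92 and 68 against 13, 7 and 3 counts, with a log2 fold change of -0.59 (SE 0.35) and groups that do not overlap on either scale. The peak near the 3′ end of Gna15 (527 bp from it, 2703 bp from the receptor gene S1pr4) held 2, 18 and 17 against 3, 7 and 2 counts, was too low to be tested and had overlapping groups. The other Gna11 peak, 6666 bp outside the gene, held 5, 47 and 15 against 14, 6 and 5 counts. Its log2 fold change was 1.13 (SE 0.47), opposite in sign to that of the start, and its groups overlap on library totals, while with TMM scaling all confined libraries lay above the unconfined ones.

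Gnaq, a widely expressed member of the family, had a low peak over its start (chr19:16132308-16133007, midpoint 26 bp outside the gene). Without confinement it held 7, 30 and 21 counts and with it 7, 2 and 0, or 23.0, 24.4 and 21.3 against 20.5, 9.03 and 0 CPM. The 0 allows up to 23.4 CPM, the value of 3 counts in confined library 3, so this library alone does not show a lower level. On library totals the groups at this start are apart by less than 1 count, 21.3 against 20.5 CPM, and with TMM scaling they overlap. The peak did not pass the filter on low counts. Of the other Gnaq peaks, 1 was tested: inside the gene, 15340 bp from its far end, with 18, 52 and 43 against 10, 4 and 5 counts and a log2 fold change of -0.07 (SE 0.39). There the groups do not overlap on library totals, with the confined ones lower, and overlap with TMM scaling. On library totals, 3 untested peaks inside the gene were higher in every confined library than in any unconfined one. Of all peaks away from gene ends in the series, 20.6% were so. The highest unconfined and lowest confined values were 19.7 and 20.5, 22.4 and 22.6, and 17.1 and 17.6 CPM, less than 1 count apart. In this order the 3 peaks lie 1099 and 8099 bp from the start and 16658 bp from the far end. The first of them, the next peak after the start, held 6, 14 and 9 against 7, 9 and 5 counts, or 13.4 ± 5.55 against 33.4 ± 11.2 CPM. The farthest Gnaq peak kept by the 50 kb limit lay at 46113 bp, with 4, 23 and 19 against 3, 6 and 4 counts. The nearest peak left out lay at 68487 bp, with 4, 27 and 7 against 4, 3 and 4.

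**Figure D2:**
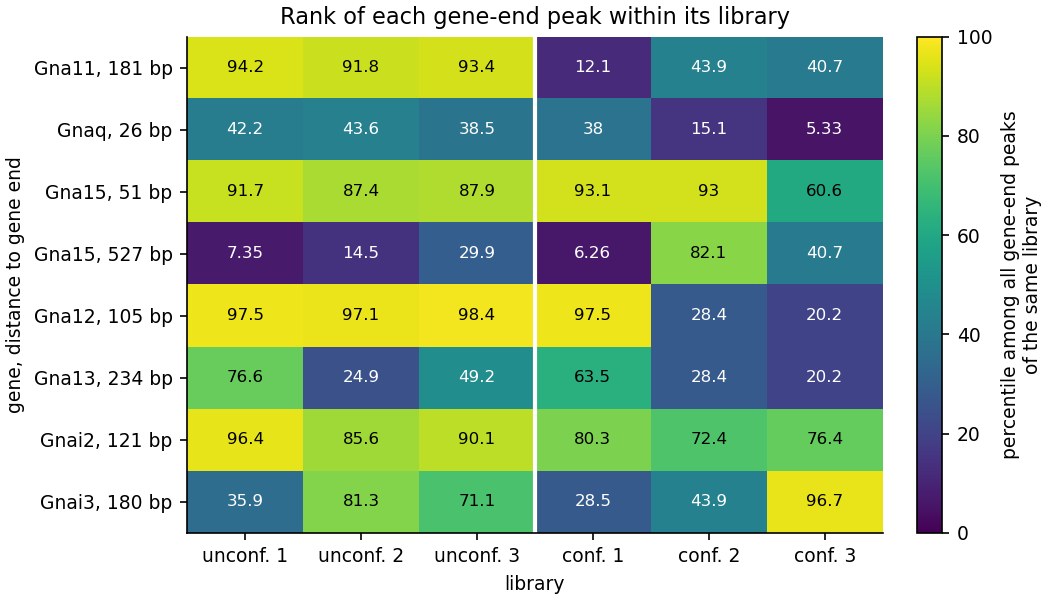
Percentile of each gene-end peak among all gene-end peaks of its own library; rows are the 8 peaks, columns the 6 libraries, and a lighter colour is a higher percentile. Gna11 is above 91 in each unconfined library and at 12.1 in confined library 1, where Gna12 stays at 97.5.

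Gna12 and Gna13, the subunits that act on RhoA exchange factors, differed from each other in level in unconfined cells. In confined libraries 2 and 3 their start peaks held equal counts. The peak at the start of Gna12 (chr5:140830186-140830885, midpoint 105 bp outside the gene) held 38, 119 and 146 against 23, 3 and 1 counts, or 125, 96.8 and 148 against 67.5, 13.6 and 7.8 CPM. The groups do not overlap on either scale, and the log2 fold change was -1.03 (SE 0.38). The confined libraries were far apart here. In library 1 the peak was at percentile 97.5 of gene-end peaks, and in libraries 2 and 3 at percentiles 28.4 and 20.2. Leaving out confined library 1 moved the log2 fold change to -2.59, so the value depends on that library.

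Gna13 had a smaller start peak, which did not pass the filter. The peak (chr11:109362678-109363377, midpoint 234 bp inside the gene) held 15, 22 and 27 against 10, 3 and 1 counts, or 49.2, 17.9 and 27.4 against 29.3, 13.6 and 7.8 CPM, and the groups overlap. Outside Gna13, 2 tested peaks lie 31221 and 15055 bp from its start and are each nearer to a gene that is not protein-coding (1600015H23Rik and 1700096J18Rik). Their log2 fold changes were 0.61 (SE 0.39) and 0.53 (SE 0.41) with TMM scaling and -0.03 and -0.12 with scaling to total counts, so their sign depends on the scaling. Summed counts gave nearly equal levels in the groups: 34.2 CPM unconfined at both peaks, and 33.3 and 31.9 CPM confined. On library totals the groups overlap at both, and with TMM scaling the confined libraries lay above the unconfined ones at 31221 bp.

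Of the subunits that lower cyclic AMP, Gnai2 had 7 peaks and Gnai3 a single one. The peak at one end of Gnai2 (chr9:107635162-107635861, midpoint 121 bp outside the gene, strand not used here) held 34, 68 and 80 against 13, 6 and 4 counts. That is 112, 55.3 and 81.3 against 38.1, 27.1 and 31.2 CPM, without overlap on either scale, with a log2 fold change of -0.52 (SE 0.36). It was at percentiles 85.6 to 96.4 of gene-end peaks in unconfined and 72.4 to 80.3 in confined libraries. The 3 confined libraries lay close together here, with an SD of 5.58 CPM, against 32.9 CPM at Gna12. The Gnai2 peak beyond the other end, 1368 bp from it, held 18, 43 and 49 against 12, 8 and 0 counts, with a log2 fold change of 0.02 (SE 0.41) that turned to -0.66 with total counts. The Gnai3 start (chr3:108145622-108146321, midpoint 180 bp inside the gene, 2349 bp from the receptor gene Gpr61) held 6, 60 and 44 against 6, 4 and 7 counts. Its groups overlap, and the log2 fold change of -0.14 (SE 0.45) turned to 0.35 without confined library 1.

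Gnas, the stimulatory subunit, is known for several alternative starts and for imprinting, and 3 of its 5 peaks lie within 1 kb of an inner RefSeq start. In unconfined cells the most open of the 5 (chr2:174344047-174344746) lies inside the gene, 2347 bp from the 3′ end, and held 21, 74 and 81 against 14, 4 and 1 counts. The levels were 68.9, 60.2 and 82.3 against 41.1, 18.1 and 7.8 CPM, with no overlap on either scale and a log2 fold change of -0.72 (SE 0.37). The peaks at inner starts were too low to be tested. They held 4, 27 and 26 against 8, 7 and 2 counts at 229 bp from a start, 4, 36 and 28 against 6, 5 and 0 at 130 bp from the start at position 174330006, and 7, 24 and 14 against 4, 4 and 1 at 896 bp from one. On library totals all 3 had overlapping groups. With TMM scaling the confined libraries lay above the unconfined ones at the peak 229 bp from a start, and the groups overlapped at the other two.

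**Figure D3:**
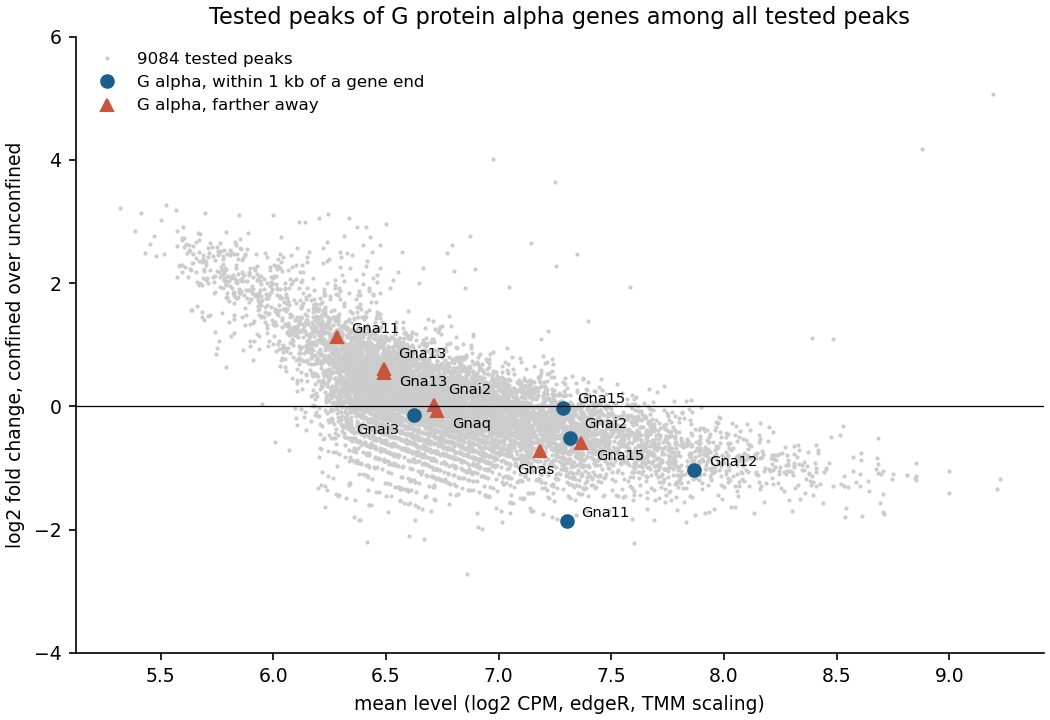
Log2 fold change of confined over unconfined against mean level (log2 CPM, edgeR with TMM scaling) for the 9084 tested peaks in grey and the 12 tested alpha subunit peaks in colour, circles for gene-end peaks and triangles for the others. The Gna11 start lies lowest of the 12 at -1.86, and the grey cloud slopes from positive values at low levels to negative values at high levels.

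Over the 36 peaks only the tested ones have a fold change with an error. The median log2 fold change of the 12 tested peaks was -0.11, against -0.02 over all 9084 tested peaks, and 8 were negative. For the 5 tested gene-end peaks the median was -0.52, against -0.26 over the 4633 tested gene-end peaks of the series, and the 7 other tested peaks 0.02 against 0.27 elsewhere. At an adjusted p under 0.05 in edgeR's quasi-likelihood test, 1 of the 12 was past the threshold, the Gna11 start, which was lower. In all, 2.42% of tested peaks were lower and 5.79% higher, and 3.78% of tested gene-end peaks were lower. With scaling to total counts, which moves the median of all tested peaks from -0.02 to -0.68, 5 of the 12 were lower (the starts of Gna11 and Gna12, Gnai2 at 121 bp, Gna15 at 4735 bp and Gnas at 2347 bp), against 25.2% of all tested peaks and 35.4% of tested gene-end peaks. The members were chosen on this contrast, and nothing is read from these counts. The log2 fold change of the Gna11 start ran from -1.47 without confined library 1 to -3.05 when that library stood alone for its group.

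As over the whole series, the mean level was higher in confined cells at most peaks away from gene ends. Of the 28 peaks more than 1 kb from a gene end, 21 are inside the gene and 7 outside, and 21 were too low to be tested. The mean CPM on library totals was higher in confined cells at 19 of the 28 and at 1 of the 8 gene-end peaks. It was higher at all 4 Gna12 peaks inside the gene and at 6 of the 7 Gnaq peaks away from the start. Over the series the confined mean was higher at 73.4% of peaks away from gene ends and 34.3% of gene-end peaks. No trait of the alpha subunit genes is read from these counts. With library totals, 4 of the 28 had all confined libraries below the unconfined ones (6.61% of all such peaks) and 3 had them above (20.6%). With TMM scaling the numbers were 2 (1.65%) and 13 (43.5%). Among the 21 untested peaks, the ratio of confined to unconfined means ran from 0.364 at a Gnai2 peak 1909 bp from a gene end to 2.87 at a Gna12 peak 31322 bp from one. At 18 of the 36 peaks at least 1 confined library held fewer than 3 counts.

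Of the counts in the 36 peaks, a smaller part lay at gene ends in confined libraries. Gene-end peaks held 41.3%, 36.9% and 42.9% of the counts in the 36 peaks without confinement, and 24.9%, 20.4% and 19.0% with it. On average this was 40.4% ± 3.11 against 21.4% ± 3.03 (SD, n = 3 each). Over all peaks of the series the gene-end share was 41.2%, 38.6% and 43.0% against 31.0%, 23.9% and 24.0%. In 5 of 6 libraries the share for the alpha subunit genes has a 95% interval that includes the series' share. In confined library 1 the interval, 20.3% to 29.8%, lies below it. These intervals cover counting error only, and the series' share is over peaks at any distance from a gene, without the 50 kb limit. The genes were chosen on this contrast, so nothing is read from this comparison.

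**Figure D4:**
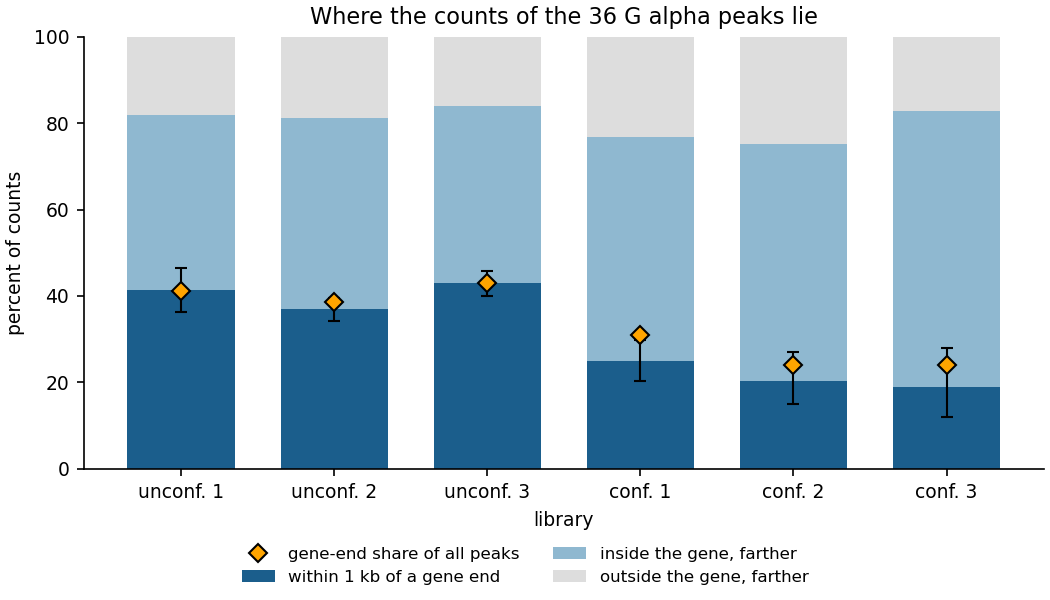
Percent of the counts in the 36 peaks that lay within 1 kb of a gene end, farther inside the gene or farther outside it, by library; black bars are exact 95% intervals of the gene-end part and diamonds give the gene-end share over all peaks of the series. The gene-end part is 36.9% to 42.9% in unconfined and 19.0% to 24.9% in confined libraries, and the diamonds are lower in confined libraries as well.

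The gene-end peaks of other genes whose log2(CPM + 1) over the 6 libraries was most like that of the Gna11 start were, by Pearson's r, those of Zbtb10 (0.9966), Poc5 (0.9945), Eif4b (0.9941), Xpot (0.9935) and Asxl2 (0.9928). They were taken from 4628 tested gene-end peaks, of which 135 had r over 0.95. The 6 points of each gene share their libraries and depths, and the Gna11 peak was chosen on this contrast, so the values are a description. A high r did not go with one size of difference: Poc5 had 49.2, 43.9 and 45.7 CPM in unconfined and 29.3, 31.6 and 31.2 in confined libraries. Eif4b, which codes for a translation initiation factor, had the same confined CPM as Gna11 (11.7, 18.1 and 15.6) and unconfined CPM of 62.3, 61.0 and 77.2. Equal CPM in a library are equal counts, here 4, 4 and 2, close to the floor of 3 counts. Asxl2, a Polycomb-associated gene, had 68.9, 58.6 and 79.3 against 11.7, 13.6 and 15.6 CPM.

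The other genes of the pathway were read from 8 lists of 144 genes, of which 130 had 454 peaks and 93 of these peaks were tested. In edgeR's test with adjusted p under 0.05, 4 were higher in confined cells (4.3% of the 93, against 5.79% of all tested peaks) and 1 was lower (1.08%, against 2.42%). Their median log2 fold change was 0.06. In DESeq2, 453 of the 9084 peaks were called higher and 77 lower. Counts at an unadjusted p under 0.05 are given below without the share of all tested peaks, so nothing is read from them. Among the other 8 alpha subunit genes 4 had a gene-end peak (Gnai1, Gnao1, Gnaz and Gna14), and 4 peaks were tested. Both edgeR with TMM scaling and DESeq2 called 0 of them (1 higher and 0 lower at an unadjusted p under 0.05 in edgeR). With total counts edgeR called 1 of the 4 lower, where 25.2% of all tested peaks were lower. The highest gene-end peak of these genes was Gnaz at 32.8, 39.0 and 49.8 against 20.5, 9.03 and 31.2 CPM (log2 fold change -0.52, SE 0.45). In edgeR its adjusted p was 0.498 with TMM scaling and 0.047 with total counts. The 17 beta and gamma genes, which code for the partners of the alpha subunits, had 4 tested peaks, of which 0 were called by edgeR or DESeq2 and 0 reached an unadjusted p under 0.05. Gnb2 led their gene-end peaks at 23.0, 35.0 and 33.5 against 20.5, 36.1 and 15.6 CPM.

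Of the regulators of alpha subunits, 3 of 13 tested peaks passed, 2 of them at Ric8b, which codes for a chaperone and exchange factor of alpha subunits. The peak at the Ric8b gene end (7 bp from it) held 39, 128 and 123 against 16, 4 and 2 counts, or 128, 104 and 125 against 46.9, 18.1 and 15.6 CPM. It fell by 1.24 on the log2 scale (SE 0.37, edgeR adjusted p = 0.0281), and the groups do not overlap. The call was lost when the replicate number entered as a block (adjusted p = 0.0803), in DESeq2 (0.0623), without unconfined library 3 (0.0714), without confined library 2 (0.0802) and when confined library 1 stood alone for its group (0.232). Another Ric8b peak, 7677 bp from a gene end, held 41, 35 and 36 against 54, 25 and 5 counts and rose by 1.93 (SE 0.36, edgeR adjusted p = 0.000685). Its CPM of 134, 28.5 and 36.6 against 158, 113 and 39.0 overlap, since unconfined library 1 was high. That call was lost with total counts (edgeR adjusted p = 0.106), in DESeq2 (0.148), without the filter on low counts (0.387), without unconfined library 2 (0.167) or 3 (0.229), and with confined library 1 alone (0.171). Rgs6, which speeds up GTP hydrolysis, had a peak 11072 bp from its end with 3, 23 and 10 against 11, 7 and 6 counts that rose by 2.03 (SE 0.56, edgeR adjusted p = 0.017). This call was lost without the filter (edgeR adjusted p = 0.123) and without unconfined library 1 (0.0958), confined library 2 (0.0887) or confined library 3 (0.0778). With confined library 1 alone the log2 fold change was 0.99. The call held with total counts, in DESeq2 and with the replicate block, and the remaining alternatives gave no value for this peak.

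Downstream of the subunits, 1 of 9 tested peaks of the phospholipase C beta and IP3 receptor list passed. It lies 33053 bp from an end of Prkcb, a protein kinase C gene, with 11, 16 and 27 against 17, 10 and 1 counts (log2 fold change 1.46, SE 0.48, adjusted p = 0.0489 in edgeR). It was lost with the replicate block (adjusted p = 0.131) and under 9 other alternatives. Itpr1, an IP3 receptor and the highest gene end of that list, held 78.7, 96.8 and 77.2 against 26.4, 27.1 and 23.4 CPM without overlap (log2 fold change -1.07, SE 0.38, adjusted p = 0.0669 in edgeR). It missed the threshold with TMM scaling and passed it with total counts (adjusted p = 0.00875). In edgeR 0 peaks passed among 12 tested of the adenylyl cyclase and protein kinase A genes (3 higher and 0 lower at an unadjusted p under 0.05, and 1 higher in DESeq2), where the median log2 fold change was 0.29. The 6 tested peaks of the RhoGEF and RhoA genes and the 7 of the receptor kinase and arrestin genes also gave 0 calls in edgeR with TMM scaling and in DESeq2. At an unadjusted p under 0.05, 1 and 2 of these were lower, and their medians were -0.47 and -0.73. With total counts edgeR called 4 of the 6 and 6 of the 7 lower. In the lists of adenylyl cyclase and phospholipase C genes it called 1 and 3 lower. The shares were 25.2% of all tested peaks and 35.4% of tested gene-end peaks. In the order just named, these lists had 4, 3, 3 and 4 tested gene-end peaks. Prkaca, the catalytic subunit of protein kinase A, held 118, 73.2 and 120 against 79.2, 9.03 and 0 CPM, with overlap (log2 fold change -0.65, SE 0.39). Trio, a guanine nucleotide exchange factor that Gq activates, held 102, 61.8 and 76.2 against 49.9, 22.6 and 23.4 CPM (log2 fold change -0.4, SE 0.35).

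Upstream of the subunits, 50 receptor genes had 179 peaks, 38 of them tested, of which edgeR called 1 higher and 0 lower, as did DESeq2 (5 higher and 2 lower at an unadjusted p under 0.05 in edgeR). With total counts edgeR called 1 higher and 8 of the 38 lower, where 25.2% of all tested peaks were lower. P2ry14, a receptor for UDP-sugars, had the highest gene end of the list at 190, 105 and 143 against 64.5, 22.6 and 46.8 CPM, without overlap (log2 fold change -0.89, SE 0.37, in edgeR an adjusted p of 0.126 with TMM scaling and 0.0251 with total counts). Grk4, a receptor kinase gene, held 210, 141 and 168 against 93.9, 31.6 and 31.2 CPM (log2 fold change -0.82, SE 0.39, in edgeR an adjusted p of 0.173 with TMM scaling and 0.0418 with total counts).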

How the data were processed

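ATAC-seq was read from 1 deposited table of raw counts per peak for 3 unconfined and 3 confined LT-HSC libraries. The counts are the authors' own, on peaks of 700 bp. The submitters' processing notes name the build mm10, featureCounts, R 4.2.0 and SAMtools 1.14. For the aligner, peak caller, duplicate removal, read shift and the samples behind the peak list, the method is not given in the sources. Peaks were linked to the nearest protein-coding gene end of GRCm38.p6 (mm10) RefSeq. Exons were not used here, so exonic, intronic and UTR positions are not given. Starts and strands came from RefSeq promoter windows, which cover 7 of the 8 genes (all but Gnai2).

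All 42632 peaks entered edgeR 4.0.16 in R 4.3.3 (filterByExpr, TMM, quasi-likelihood test, group as the only term, two-sided, Benjamini-Hochberg), with the SE of a log2 fold change taken as its size over the root of the F statistic. The filter kept 9084 peaks, 12 of the 36 described. DESeq2 1.42.0, total-count scaling, other filters, the replicate block and left-out libraries were alternatives. CPM are counts per 1000000 counts in all peaks of a library; this scale was taken after seeing the data in place of TMM-scaled CPM, and overlaps of groups are on library totals unless TMM is named. Correlations used a pseudocount of 1. Intervals are at 95% (Python 3.11.15, SciPy 1.17.1).

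Genes, lists and rules were chosen with earlier results of these data known. Every tested member peak and every gene-end peak is named. For the pathway lists, every called peak but 1, which is not reported here, and the highest gene-end peak of each list are named (the regulator list's highest is also called), as are the 5 gene-end peaks most like the Gna11 start. Same-numbered samples share an experimental batch in the labels, which pairs them. Their deviations from the group means correlated at -0.00436, 0.0168 and -0.0681 over tested peaks, against -0.135 to 0.14 for other numbers, and each batch holds 1 library of each group.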

Additional observations from a re-analysis of the deposited data

How the results depend on the processing

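The Gna11 start had log2 fold changes from -3.05 to -1.47 over 12 alternatives. Since the member peaks were chosen on this contrast, how they fare under alternatives describes the processing and is no support for them. Of 144 fold changes of member peaks under alternatives, 114 kept direction and side, 8 newly passed the threshold (4 at Gna12, 2 at Gnas, 1 each at Gna15 and Gnai2), and 22 changed sign without passing. The signs that changed were those of 4 peaks. Gna13 at 31221 bp gave -0.03 with total counts, -0.24 without a filter and -0.16 with confined library 1 alone. Gna13 at 15055 bp gave -0.12, -0.35 and -0.45 in these settings and -0.13 without confined library 2, and with a library left out it ran from -0.13 to 0.78. Gnai2 at 1368 bp gave -0.66, -0.91 and -0.58 in these settings, -0.05 in DESeq2 and with a filter on mean log2 CPM, -0.14 with the replicate block, -0.4, -0.34 and -0.15 without unconfined libraries 1, 2 and 3, and -0.16 and -0.51 without confined libraries 1 and 2. Gnai3 gave 0.24 in DESeq2, 0.35 with the replicate block and without confined library 1, and 0.1 without unconfined library 2, and with a library left out it ran from -0.85 to 0.35.

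The number of called member peaks was 1 lower and 0 higher, 5 lower with total counts, 3 lower without a filter, and 1 to 2 lower and 0 to 1 higher when 1 library was left out (2 lower without unconfined library 1 and without confined library 1, where a Gnaq peak at 1099 bp was higher). Over all tested peaks, 526 were higher and 220 lower; these became 348 and 2286 with total counts, 3 and 7 with confined library 1 alone, and 250 to 1696 and 76 to 788 with 1 library left out. Lower calls were 77 in DESeq2, 1821 without a filter and 74 with the replicate block. In the pathway lists, 4 higher calls became 2 with total counts or the mean filter, 9 without a filter, 0 with confined library 1 alone and 2 to 16 with a library left out. The 1 lower call became 24, 0 in DESeq2, with the replicate block or with confined library 1 alone, 18 without a filter, and 0 to 6 with a library left out. The member peaks tested were 12 with the main filter, 36 without a filter and 13 to 16 with a library left out. Over all peaks these numbers were 9084, 42632 and 10622 to 15977, and in the pathway lists 93, 454 and 105 to 179. The counts of calls are therefore over unlike sets of tested peaks. Fewer samples enter the left-out fits, and the filter was run again in each. Otherwise the cause was not tested. The lone confined library is assumed to vary like the unconfined ones.

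The share of a library's counts in the 8 gene-end peaks differed by -0.0277 percentage points, and by -0.0319 to -0.0256 with a library left out. It was -0.0297 with a 2 kb limit and -0.0246 with RefSeq starts, a definition chosen after seeing the data. Within 10 kb the rule gave 21 peaks, and with genes of every biotype 27. The 5 peaks most like Gna11 were the same with a pseudocount of 0.5. The replicate block changed no call of a member peak. Depth limits the single values: 18 of 36 peaks had a confined library under 3 counts.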
